A study of Mus musculus with 10 samples.

Results

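The genes described here are those of the DNA replication machinery and of mitosis, the markers of cells in the division cycle. The list held 39 genes, of which 16 act in replication and 23 in mitosis. Each gene was read through 1 probe set, the brightest on average over the 10 arrays among the probe sets that the platform annotation assigns to that gene alone. In this way 38 of the 39 genes were measured, out of 18193 genes with such a probe set in the whole series. Ccnb1 had no probe set that the annotation assigns to it alone and is not analysed here. All 38 lay above the low-signal limit on their mean over the 10 arrays and were among the 13450 genes tested.

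RNA came from whole mouse lenses hybridised to Affymetrix mouse 430 2 arrays, 1 biotin-labelled sample per array. The groups were Klf4-conditional null (Klf4CN) lenses at postnatal day 56 (PN56_Klf4CN, 2 arrays), wild-type lenses at the same age (PN56_WT, 2 arrays), Klf4CN lenses at embryonic day 16.5 (E16.5_Klf4CN, 3 arrays) and wild-type lenses at that age (E16.5_WT, 3 arrays). Klf4 encodes the zinc-finger transcription factor Krüppel-like factor 4. Each sample was an independent preparation that pooled lenses of 5 embryos or of 3 young adults, so the arrays of a group differ in their animals, and no value belongs to a single animal. The age of the lens goes together with the number of animals in a pool and with a separate set of preparations, and these cannot be told apart. The sources used here give no Cre driver, strain or floxed allele.

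Before a cell divides, the origin recognition complex, Cdc6 and Cdt1 load the Mcm2 to Mcm7 helicase onto DNA, and geminin, the product of Gmnn, holds Cdt1 back so that each origin fires once per cycle. Cyclin-dependent kinase 1 with cyclins A and B then drives entry into mitosis, the aurora and polo kinases build the spindle, and Cdc20 with the anaphase-promoting complex ends it once the spindle checkpoint is satisfied. In the lens, division is known to be confined to the anterior epithelium and to be most active in its germinative zone, while fibre cells leave the cycle as they elongate and fill with crystallins. A whole-lens sample therefore mixes a dividing layer with a large mass of cells that no longer divide. A lower signal from such a sample may reflect fewer cells of the dividing type or less RNA per cell, and these cannot be told apart here.

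Replication and mitosis genes are known for different promoter elements, so the sequences that carry this contrast are shown first. Promoters were taken from RefSeq (GRCm38.p6), each 300 bases long with 250 before and 50 after the annotated start, and 33 of the 39 genes had an entry, 14 of replication and 19 of mitosis. Mcm4, Gmnn, Ccna2, Aurkb, Kif20a and Foxm1 had none, and Mcm7 and Prc1 had 2 entries each. Both strands were searched for 3 motifs: the core of the cell-cycle homology region (CHR), TTTGAA; the CCAAT box, CCAAT; and an E2F-like site, counted where a promoter held the form TTCCCGC, or the form TTGGCGC, or the form TTCGCGC. Matches can share bases: the opposite-strand CCAAT box reads ATTGG and can run into an E2F-like site, and the E2F-like forms can overlap each other. CHR elements are bound by the MuvB-containing complexes, CCAAT boxes by NF-Y, and E2F sites by the E2F and DP factors. The 120 bases before the start of 3 replication genes are given below, 5′ to 3′ on the gene's strand, with matches to any of the 3 motifs in capitals. Mcm6 was chosen because it differed between the genotypes, Rrm1 for its E2F-like site between CCAAT boxes, and Mcm2 as the replication gene with the CHR core.

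Mcm6, chr1:128359706-128359825, minus strand: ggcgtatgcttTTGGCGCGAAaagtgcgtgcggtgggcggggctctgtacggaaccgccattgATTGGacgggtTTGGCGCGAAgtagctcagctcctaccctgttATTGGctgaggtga

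Rrm1, chr7:102441575-102441694, plus strand: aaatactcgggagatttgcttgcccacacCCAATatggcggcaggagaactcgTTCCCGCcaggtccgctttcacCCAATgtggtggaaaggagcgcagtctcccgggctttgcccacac

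Mcm2, chr6:88898781-88898900, minus strand: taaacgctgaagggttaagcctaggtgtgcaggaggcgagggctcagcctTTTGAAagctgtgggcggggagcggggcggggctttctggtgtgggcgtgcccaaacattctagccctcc

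The same stretch of 5 mitosis genes is given next. Cdk1, Cdc20, Top2a and Ube2c were chosen because each holds a CHR core, on one strand or the other, with CCAAT boxes near it, and Cdca8 because it had the clearest genotype difference. In Cdca8 the CHR core fell after the annotated start and so outside the printed bases.

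Cdk1, chr10:69352913-69353032, minus strand: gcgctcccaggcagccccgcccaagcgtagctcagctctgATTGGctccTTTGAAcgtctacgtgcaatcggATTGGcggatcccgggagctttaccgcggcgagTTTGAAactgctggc

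Cdc20, chr4:118437344-118437463, minus strand: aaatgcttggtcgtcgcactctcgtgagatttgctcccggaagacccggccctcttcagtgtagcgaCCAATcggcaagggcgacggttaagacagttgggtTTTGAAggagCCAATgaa

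Top2a, chr11:99024190-99024309, minus strand: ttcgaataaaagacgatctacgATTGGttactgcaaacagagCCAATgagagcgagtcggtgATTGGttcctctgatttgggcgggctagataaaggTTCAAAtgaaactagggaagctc

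Ube2c, chr2:164769809-164769928, plus strand: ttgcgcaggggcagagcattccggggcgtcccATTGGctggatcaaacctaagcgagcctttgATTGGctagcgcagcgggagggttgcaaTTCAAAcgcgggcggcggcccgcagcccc

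Cdca8, chr4:124936918-124937037, minus strand: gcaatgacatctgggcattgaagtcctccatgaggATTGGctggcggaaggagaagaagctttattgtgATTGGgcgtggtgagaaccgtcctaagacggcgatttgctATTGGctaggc

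Over the whole 300 bases, the CHR core was found in 14 of 20 promoters of the mitosis genes (70.0%) and in 1 of 15 promoters of the replication genes (6.7%), that of Mcm2, against 12.1% of the promoters of all genes tested and 17.9% of all promoters in the table. The E2F-like site ran the other way, with 9 of 15 replication promoters (60%) and 3 of 20 mitosis promoters (15.0%), against 13.5% over all genes tested. The CCAAT box was common to both sets, in 85.0% of mitosis and 73.3% of replication promoters, against 37.4% over all genes tested. All 14 mitosis promoters with a CHR core also held a CCAAT box, a combination found in 4.7% of promoters of all genes tested. Both Prc1 entries are among the 14, and they overlap and share the same CHR core and CCAAT box. Further genes of the same pathways showed the same order, with the CHR core in 58.8% of 51 other mitosis promoters and 16.3% of 49 other replication promoters, and the E2F-like site in 21.6% and 55.1% of them. These matches describe letters in a window and were not related to binding in these lenses.

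**Figure D1:**
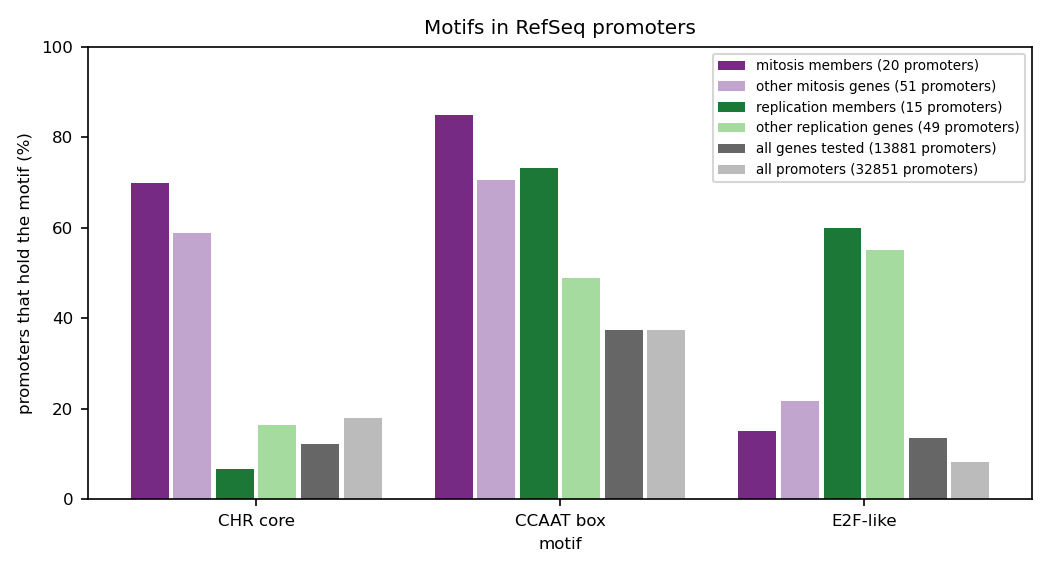
Share of RefSeq promoters (percent, bars from 0) that hold each of 3 motifs, for the mitosis and replication genes of the list, further genes of the same pathways, all genes tested and all promoters. The CHR core stands at 70.0% in the mitosis genes and 6.7% in the replication genes, and the E2F-like site at 15.0% and 60%.

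The signals are the authors' deposited linear intensities, in arbitrary units, scaled so that the trimmed mean of each array is 500. The median probe set read 91.0 to 108.6 on the PN56 arrays and 63.0 to 76.9 on the E16.5 arrays. Lens identity was plain in all samples, with the 14 measured crystallin genes summing to 928723 to 954586 in PN56_Klf4CN, 1238371 to 1432174 in PN56_WT, 355760 to 416927 in E16.5_Klf4CN and 418639 to 491113 in E16.5_WT. The targeted gene went against its label. Klf4 read 731.8 and 702.2 in PN56_Klf4CN against 156.5 and 213.5 in PN56_WT, and 1360.3, 804.8 and 1071.9 in E16.5_Klf4CN against 774.5, 1015.4 and 428.4 in E16.5_WT. Its log2 difference was 1.88 ± 0.34 (SE) at PN56 (limma adjusted p = 0.0041) and 0.59 ± 0.28 at E16.5 (adjusted p = 0.9998). Whether the probe set lies in the deleted part could not be read from the labels, so every direction below is that of the lenses labelled Klf4CN. In the text, a log2 difference is that of log2(signal + 16), with its SE, from a limma fit to all 10 arrays and all tested genes, and a gene passed the test at a Benjamini-Hochberg adjusted p under 0.05 over all 13450 genes. The offset understates the change of dim genes.

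**Figure D2:**
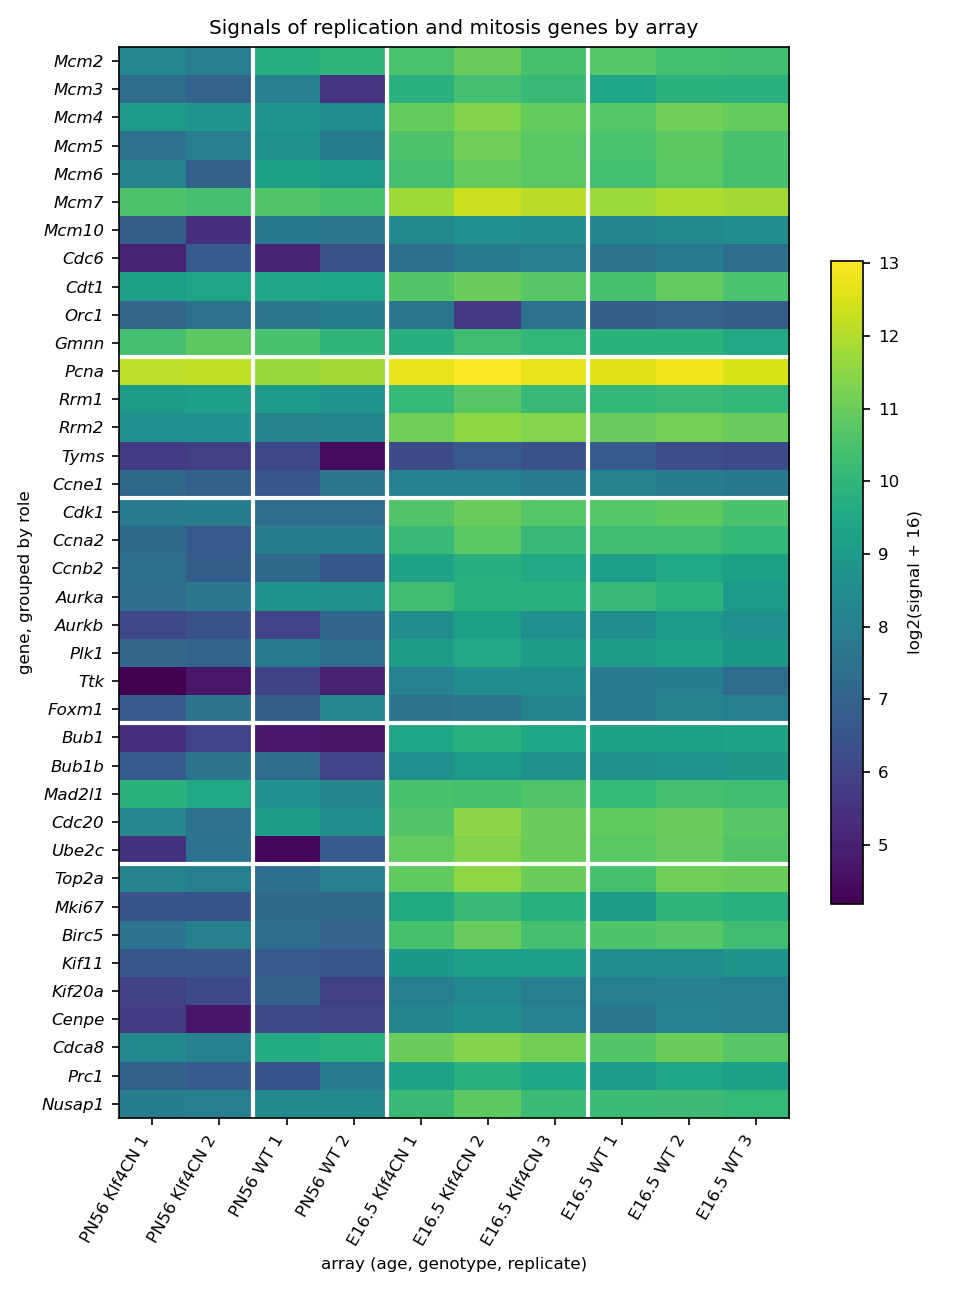
Signal of the 38 measured genes on each of the 10 arrays, as log2(signal + 16) by colour, with genes grouped by role from licensing at the top to spindle and cytokinesis at the bottom. The 4 PN56 arrays at the left are darker than the 6 E16.5 arrays at the right in most rows, and Gmnn and Orc1 are not.

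Division genes were abundant in the embryonic lens. The mean signals of the 38 genes ran from 71.0 to 7206 in E16.5_Klf4CN, with a median of 1076, and from 69.1 to 6397 in E16.5_WT, with a median of 846. At PN56 they reached 4585 in PN56_Klf4CN, with a median of 137, and 3499 in PN56_WT, with a median of 197. Means under the low-signal limit of 45.0 were those of Tyms, Bub1, Ttk and Cenpe in PN56_Klf4CN and of Cdc6, Tyms, Bub1 and Ttk in PN56_WT. Levels of different genes are not set against each other, since each probe set has its own response.

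Most division genes had a far lower signal in the adult lens. In Klf4CN lenses, 34 of the 38 genes were lower at PN56 than at E16.5 and 1, Gmnn, was higher, against 52.1% of all tested genes called in either direction, 30.5% lower and 21.6% higher. In WT lenses, 33 were lower and none passed the test as higher, against 55.6% of all tested genes called in either direction and 30.7% called lower. The counts include Rrm1 in both genotypes and Bub1b in Klf4CN, whose probe sets disagree. Probe sets were chosen and filtered on the mean over all 10 arrays, most of them E16.5, which favours probe sets bright in the embryo. Of the genes counted lower, Bub1, Ttk and Cenpe in Klf4CN and Cdc6, Bub1 and Ttk in WT had PN56 means under the low-signal limit. The median log2 difference of the 38 genes was −2.48 in Klf4CN and −1.85 in WT, and that of all tested genes was −0.10 and −0.04. The mitosis genes had a median of −2.75 in Klf4CN and −2.13 in WT, and the replication genes −1.70 and −1.24. With each array centred on its own median, the median over all tested genes was −0.45 in Klf4CN and −0.56 in WT, and that over the 38 genes was −2.82 and −2.36.

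Among the licensing factors, the helicase subunits fell together. Mcm4 read 486.8 and 441.3 in PN56_Klf4CN against 1970.2, 2587.7 and 1933.8 in E16.5_Klf4CN. In WT lenses Mcm4 read 431.1 and 343.6 at PN56, against 1640.0, 2133.5 and 1927.4 at E16.5. The ages did not overlap in either genotype, and the differences were −2.17 ± 0.17 (limma adjusted p = 5.1e-07) and −2.25 ± 0.17 (adjusted p = 3.4e-07). Mcm3, Mcm5, Mcm6 and Mcm7, further subunits of the same ring, fell too, with log2 differences from −3.18 to −1.58 in Klf4CN and from −2.90 to −1.31 in WT. Mcm2 had −2.54 ± 0.20 in Klf4CN and −0.59 ± 0.20 in WT, both past the test, while its second probe set had −2.75 and −2.78. Mcm10, which helps to activate the loaded helicase, fell in Klf4CN (−2.41 ± 0.34) and did not pass in WT (−0.66 ± 0.34, adjusted p = 0.122). The loaders fell in both genotypes, Cdc6 with −1.83 in Klf4CN and −1.87 in WT, and Cdt1 with −1.54 and −1.25.

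Gmnn and Orc1 did not follow the helicase. Gmnn, the inhibitor of licensing, read 1326.7 and 1749.5 in PN56_Klf4CN against 856.6, 1240.1 and 1048.6 in E16.5_Klf4CN. In WT lenses it read 1425.8 and 992.2 at PN56, against 917.9, 911.3 and 724.2 at E16.5. Both PN56 groups lay above their E16.5 groups without overlap. The difference was 0.55 ± 0.20 in Klf4CN (limma adjusted p = 0.037) and 0.48 ± 0.20 in WT (adjusted p = 0.059), and the call in Klf4CN was lost in 6 of 22 alternatives. These were arrays centred on their median (0.20, adjusted p = 0.465), no intensity trend, the replicate block, and leaving out E16.5_Klf4CN replicate 1, E16.5_Klf4CN replicate 3 or PN56_Klf4CN replicate 2. Orc1, the large subunit of the origin recognition complex, had differences of 0.36 ± 0.49 in Klf4CN and 0.95 ± 0.49 in WT, neither past the test.

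In the group of clamp, nucleotide supply and S-phase cyclin, Rrm2, the regulated subunit of ribonucleotide reductase, had the largest fall. It read 379.9 and 387.6 in PN56_Klf4CN against 2169.2, 2939.3 and 2665.8 in E16.5_Klf4CN. In WT lenses Rrm2 read 263.1 and 286.5 at PN56, against 1998.8, 2309.3 and 1977.3 at E16.5. The replicates were tight at PN56, and the differences were −2.69 ± 0.15 in Klf4CN (limma adjusted p = 2.9e-08) and −2.86 ± 0.15 in WT (adjusted p = 1.4e-08). Pcna, the sliding clamp of DNA polymerase, read 4505.8 and 4664.1 in PN56_Klf4CN and 3328.0 and 3669.8 in PN56_WT, against E16.5 means of 7206 in Klf4CN and 6397 in WT. It passed at −0.64 and −0.86. Ccne1, the cyclin of the G1 to S transition, passed at −0.98 in Klf4CN and −0.82 in WT. The WT call for Ccne1 was lost in 11 of 22 alternatives, with −0.25 without PN56_WT replicate 1, and the Klf4CN call in 3. Tyms, which makes thymidylate, was dim throughout and did not pass in either genotype. Rrm1, the large reductase subunit, depended on the probe set: its brightest one fell (−1.28 in Klf4CN, −1.22 in WT), and a second one rose (2.02 and 2.30), with a mean of 704 in PN56_Klf4CN against 166 in E16.5_Klf4CN and 690 in PN56_WT against 129 in E16.5_WT. No direction is drawn for Rrm1.

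The mitotic kinases and cyclins fell as well. Cdk1, the kinase that starts mitosis, read 206.3 and 229.4 in PN56_Klf4CN against 1565.3, 2066.3 and 1660.2 in E16.5_Klf4CN. In WT lenses Cdk1 read 143.3 and 138.9 at PN56, against 1654.4, 1765.9 and 1414.5 at E16.5. The difference was −2.92 ± 0.16 in Klf4CN and −3.37 ± 0.16 in WT, with limma adjusted p = 3.7e-08 and 9.1e-09. Of its cyclin partners, Ccna2 had −3.43 in Klf4CN and −2.30 in WT, and Ccnb2 −2.43 and −2.39. Of the aurora kinase genes, which serve spindle poles and centromeres, Aurka had −2.42 in Klf4CN and −0.91 in WT, and Aurkb −2.54 and −2.21. The WT call for Aurka was lost in 5 of 22 alternatives, 4 of them with 1 array left out (E16.5_WT replicate 1 or 2, PN56_WT replicate 1 or 2; −0.95 to −0.68) and the other with probe sets averaged (0.03). Plk1, the polo kinase, had −2.13 and −1.47, and Ttk, a kinase of the spindle checkpoint, −3.93 and −2.24. All of these passed with the brightest probe set. Foxm1, a transcription factor of the mitotic genes, did not pass with its brightest probe set, at −0.72 ± 0.41 and −0.44 ± 0.41. A dimmer Foxm1 probe set passed with −2.58 in Klf4CN and −2.49 in WT. Another dimmer one passed in WT (−2.69, limma adjusted p = 0.0044) and not in Klf4CN (−1.46, adjusted p = 0.086).

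All 5 genes of the spindle checkpoint and of anaphase fell with their brightest probe sets in both genotypes. Ube2c, the ubiquitin-conjugating enzyme of the anaphase-promoting complex, read 28.4 and 174.0 in PN56_Klf4CN against 1879.9, 2583.0 and 2072.3 in E16.5_Klf4CN. In WT lenses Ube2c read 4.2 and 89.6 at PN56, against 1740.8, 1990.2 and 1570.5 at E16.5. The ages lay far apart in both genotypes although the PN56 replicates spread widely, and the differences were −4.57 ± 0.61 and −5.26 ± 0.61 (limma adjusted p = 5.5e-05 and 1.5e-05). Bub1, a checkpoint kinase, fell with its brightest probe set (−3.84 in Klf4CN, −4.53 in WT), to signals below the offset of 16 on both PN56_WT arrays. A dimmer Bub1 probe set fell in Klf4CN (−2.07, limma adjusted p = 0.00089) and not in WT (0.39, adjusted p = 0.427). Bub1b, a further checkpoint protein, had −1.63 in Klf4CN and −2.17 in WT, and Cdc20, the activator that the checkpoint blocks, −3.15 and −2.10. Mad2l1, which holds Cdc20 inactive, had −0.85 ± 0.17 in Klf4CN and −1.83 ± 0.17 in WT. A second Bub1b probe set fell too (−2.79 in Klf4CN and −3.55 in WT), but a dimmer one rose in Klf4CN (1.30, adjusted p = 0.049) and was at 0.00 in WT, so no direction is drawn for Bub1b in Klf4CN.

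All 9 genes of chromosomes, spindle and cytokinesis fell with their brightest probe sets in both genotypes. Top2a, the topoisomerase that untangles sister chromatids, read 267.1 and 241.4 in PN56_Klf4CN against 1876.4, 2919.9 and 2103.2 in E16.5_Klf4CN. In WT lenses Top2a read 152.6 and 247.8 at PN56, against 1371.8, 2144.7 and 2086.3 at E16.5. The differences were −3.08 ± 0.25 in Klf4CN and −3.13 ± 0.25 in WT (limma adjusted p = 7.1e-07 and 5.3e-07). Mki67, whose protein is the antigen used to stain dividing cells, had −3.38 in Klf4CN and −2.44 in WT. In the chromosomal passenger complex, Birc5 (survivin) had −2.81 and −3.41, and Cdca8 (borealin) −2.95 and −1.11. A second Cdca8 probe set passed in Klf4CN (−2.52) and not in WT (−0.22, adjusted p = 0.375). The motor genes Kif11, Kif20a and Cenpe and the microtubule-binding Prc1 and Nusap1 ran from −3.06 to −2.05 in Klf4CN and from −2.09 to −1.61 in WT. A dimmer Kif11 probe set had 0.52 in Klf4CN and −0.80 in WT, and a dimmer Nusap1 one −0.95 and 0.38, none past the test. A dimmer Top2a probe set passed in Klf4CN (−1.31) and not in WT (−0.33, limma adjusted p = 0.538).

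**Figure D3:**
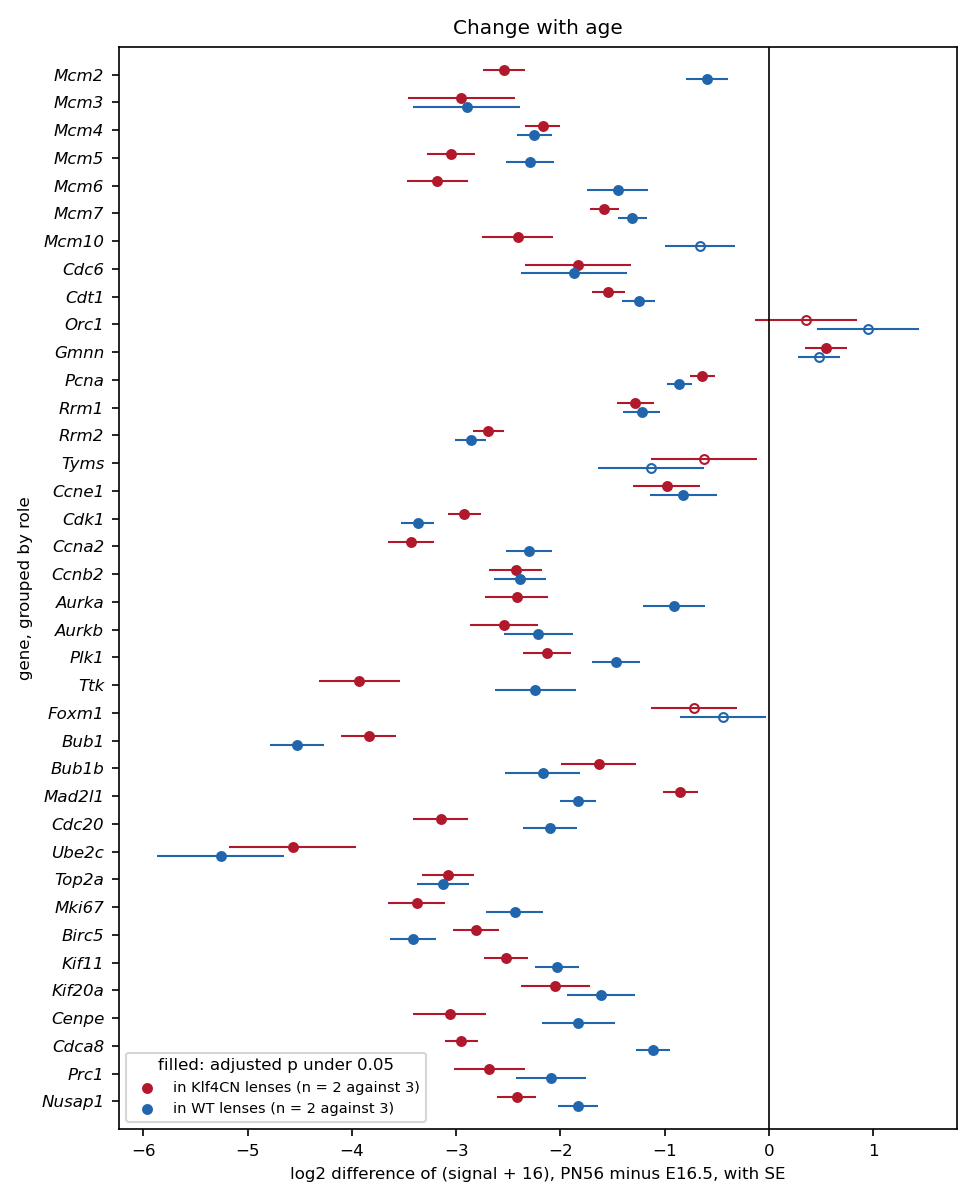
Log2 difference of (signal + 16), PN56 minus E16.5, with its SE, for the 38 genes in Klf4CN lenses (red, upper point of each pair) and WT lenses (blue, lower point), 2 arrays against 3 in each. Filled points passed the test, 35 in Klf4CN and 33 in WT, and Gmnn is the one filled point to the right of 0.

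The calls with age held in every alternative that gave a value (21 or 22 a gene) for 30 of 35 genes in Klf4CN, the exceptions being Mcm10, Cdc6, Gmnn, Rrm1 and Ccne1, and for 26 of 33 in WT, the exceptions being Mcm2, Cdc6, Cdt1, Rrm1, Ccne1, Aurka and Ttk. Cdc6 lost its call without PN56_Klf4CN replicate 1 (−0.98) in Klf4CN and without PN56_WT replicate 1 (−1.21) in WT, and Mcm2 in WT without E16.5_WT replicate 1 or PN56_WT replicate 1. The fall was seen with other probe sets of the same genes for most of them. For the 21 genes called lower in WT that had further probe sets above the low-signal limit, 25 of 29 further probe sets were also lower at PN56. The 4 on the other side belonged to Rrm1, Bub1, Bub1b and Nusap1. Markers of other cell types also changed with age in these lenses. All 11 endothelial markers fell in both genotypes, summing to 938 to 980 in PN56_Klf4CN and 697 to 1210 in PN56_WT, against 7082 to 10988 in E16.5_Klf4CN and 6956 to 9337 in E16.5_WT. Of 14 macrophage markers 11 fell in Klf4CN and 12 in WT. The 15 lens epithelial markers split, with 5 higher and 4 lower in Klf4CN and 7 higher and 4 lower in WT, while their summed signal was 92486 to 100874 in PN56_Klf4CN and 121641 to 131790 in PN56_WT, against 75373 to 85609 in E16.5_Klf4CN and 79151 to 86447 in E16.5_WT. Photoreceptor markers went up, 9 of 10 in each genotype with medians of 4.06 in Klf4CN and 3.8 in WT, and of 10 pigment cell markers 4 were higher and 1 lower in Klf4CN and 7 higher in WT. Of 15 retinal progenitor and neuron markers, 9 were lower and 1 higher in Klf4CN and 3 lower and 1 higher in WT. The part of these cell types in the fall of the division genes was not tested. Spiked-in Dap transcript read 6.55 in PN56_Klf4CN and 12.8 in PN56_WT, against 3576 in E16.5_Klf4CN and 3655 in E16.5_WT (means), so the ages also differ in a control that is added during sample preparation.

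At PN56, the lenses labelled Klf4CN differed from WT in 8 of the 38 genes, in both directions. With the brightest probe sets, Mcm2, Mcm6, Mcm10, Ccna2, Aurka and Cdca8 were lower and Mad2l1 and Bub1 higher, but the probe sets of Bub1 went opposite ways and no direction is drawn for it. The 8 genes are 21.1% of the list, against 13.0% of all tested genes called in this comparison, of which 6.04% were higher and 6.97% lower. The median log2 difference was −0.10 over the 38 genes and −0.06 over all tested genes. It was 0.07 for the replication genes and −0.32 for the mitosis genes. With arrays centred on their median, 6 of the 38 genes passed, 2 higher and 4 lower, the median over the list was 0.03, and over all tested genes 911 were higher and 356 lower, against 812 and 938 without centring. These comparisons use the same PN56 arrays as the age comparisons above and are not independent of them.

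Mcm2 read 298.0 and 233.2 in PN56_Klf4CN against 830.5 and 1015.5 in PN56_WT. The groups were far apart, at 0.288 of the WT mean, and the difference was −1.74 ± 0.21 (limma adjusted p = 0.00047). Mcm6 read 265.6 and 103.3 in PN56_Klf4CN against 575.0 and 479.8 in PN56_WT, with a difference of −1.56 ± 0.32 (adjusted p = 0.0083). The Mcm6 replicates labelled Klf4CN spread more than those of WT, and both lay below them. Mcm10 read 94.4 and 25.6 in PN56_Klf4CN against 201.0 and 191.2 in PN56_WT, a difference of −1.65 ± 0.38 (adjusted p = 0.014). The other licensing genes did not pass, and neither did any of the clamp, nucleotide supply and S-phase cyclin group. Of the helicase ring, Mcm3, Mcm4 and Mcm7 had differences of 0.35, 0.26 and −0.04 and Mcm5 of −0.57, none past the test. Mcm2 and Mcm6 differed between probe sets too. A second Mcm2 probe set read 328.4 and 166.7 in PN56_Klf4CN against 285.8 and 199.7 in PN56_WT, with groups that overlapped and a difference of −0.02 (adjusted p = 0.969), and a second Mcm6 probe set had −0.89 (adjusted p = 0.105), both from a fit to every probe set by itself. The brightest Mcm2 probe set is of the shared type, whose probes can match more than 1 transcript. Mcm3 rested on 1 array: it read 142.7 and 112.4 in PN56_Klf4CN against 248.8 and 31.3 in PN56_WT, and the difference was 1.59 (adjusted p = 0.011) without PN56_WT replicate 1 and −0.89 (adjusted p = 0.064) without PN56_WT replicate 2.

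Among the mitosis genes, Cdca8 had the smallest adjusted p of the list. It read 307.9 and 253.0 in PN56_Klf4CN against 773.7 and 865.4 in PN56_WT, a difference of −1.50 ± 0.17 (limma adjusted p = 0.00032). A second Cdca8 probe set read 161.0 and 157.5 in PN56_Klf4CN against 718.6 and 584.2 in PN56_WT and also passed, at −1.92 (adjusted p = 0.00037). Both are of the shared type. The one Cdca8 probe set that is not had −0.70 and did not pass (adjusted p = 0.199). Ccna2, the gene of cyclin A2, read 130.8 and 85.9 in PN56_Klf4CN against 229.8 and 222.0 in PN56_WT, a difference of −0.98 ± 0.24 (adjusted p = 0.019), and its second probe set had −0.47 (adjusted p = 0.29). Aurka read 148.5 and 197.7 in PN56_Klf4CN against 422.5 and 402.1 in PN56_WT, a difference of −1.19 ± 0.33 (adjusted p = 0.033).

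Of the spindle checkpoint genes, Mad2l1 was higher. It read 916.4 and 705.0 in PN56_Klf4CN against 386.0 and 281.2 in PN56_WT, a difference of 1.25 ± 0.19 (limma adjusted p = 0.0014). Both labelled Klf4CN arrays stood clear above WT, and this gene has 1 probe set. Bub1 read 26.6 and 47.2 in PN56_Klf4CN against 10.8 and 9.2 in PN56_WT, a difference of 1.0 ± 0.28 (adjusted p = 0.037). These signals lie near or under the low-signal limit of 45.0. A second Bub1 probe set went the other way, with 5.2 and 6.9 in PN56_Klf4CN against 76.3 and 82.0 in PN56_WT (−2.11, adjusted p = 0.0099). Of the checkpoint and anaphase genes that did not pass, Cdc20 had −0.87 ± 0.28 (adjusted p = 0.064), Bub1b 0.51 ± 0.39 and Ube2c 0.99 ± 0.67.

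Several genes came close without passing. Cdk1 read 206.3 and 229.4 in PN56_Klf4CN against 143.3 and 138.9 in PN56_WT, groups that did not overlap, with a difference of 0.57 ± 0.18 (limma adjusted p = 0.053). Rrm2 had 0.46 ± 0.16 (adjusted p = 0.078), Pcna 0.39 ± 0.14 (adjusted p = 0.081) and Birc5 0.66 ± 0.24 (adjusted p = 0.092). Mki67 read 70.7 and 73.6 in PN56_Klf4CN against 133.1 and 127.0 in PN56_WT, with −0.73 ± 0.29 (adjusted p = 0.121). The groups did not overlap for 21 of the 38 genes, 8 higher and 13 lower in Klf4CN, against 50.8% of all tested genes without overlap, 21.7% higher and 29.0% lower. With quantile normalization 11 genes passed, 5 higher and 6 lower, the 3 added being Cdk1, Rrm2 and Birc5.

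**Figure D4:**
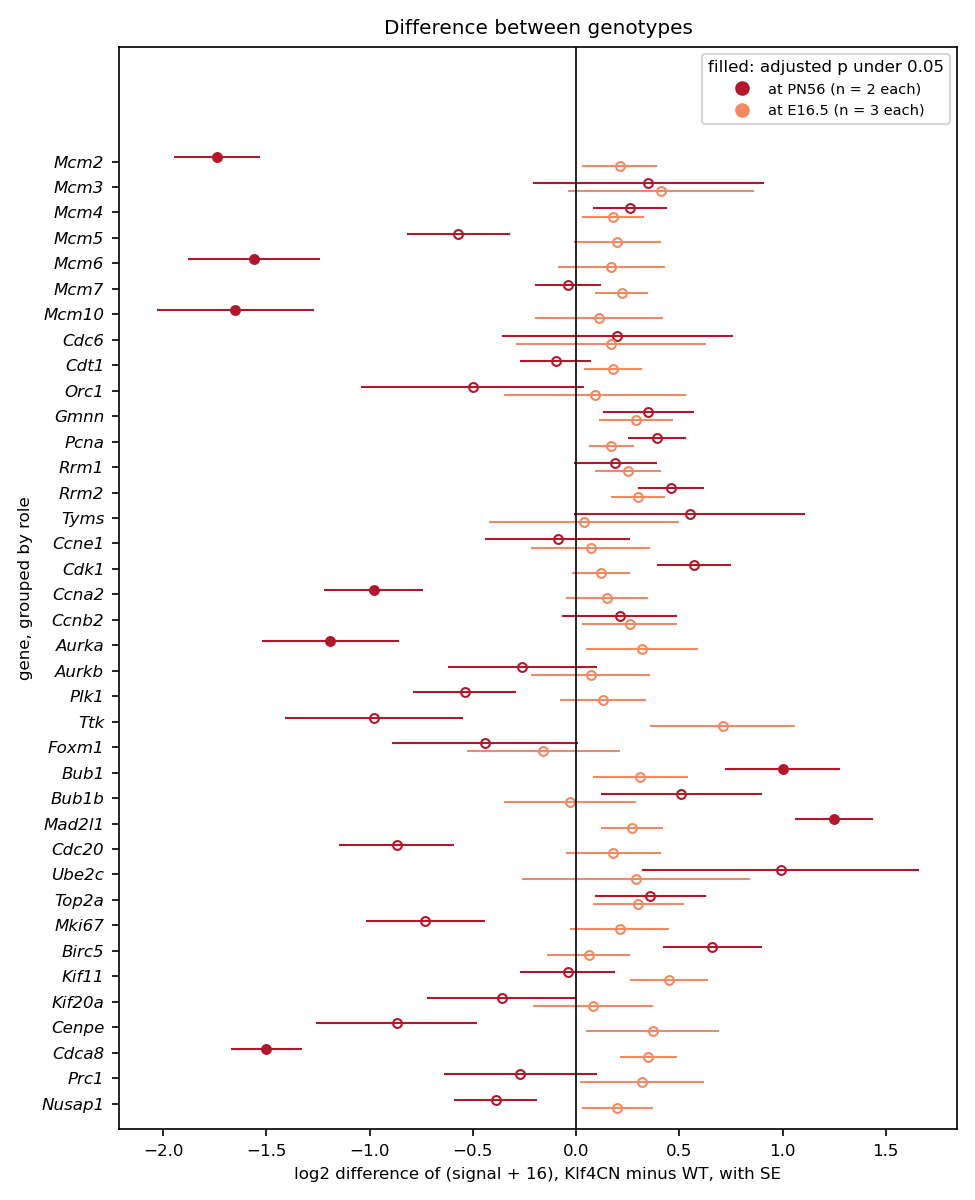
Log2 difference of (signal + 16), Klf4CN minus WT, with its SE, for the 38 genes at PN56 (dark red, upper point of each pair, 2 arrays each) and at E16.5 (orange, lower point, 3 arrays each). Filled points passed the test: 6 genes left of 0 and 2 right of it at PN56, and none at E16.5, where 36 of 38 points lie right of 0.

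The 8 calls were not equally firm over 22 other ways of processing the arrays or leaving 1 out. Mcm2, Cdca8 and Mad2l1 passed in all 22. Fits without an E16.5 array are among these and leave the PN56 differences themselves unchanged. Mcm2 was at −0.88 with its probe sets averaged, and its second probe set alone, at −0.02, did not pass. Mcm6 lost its call in 2, Mcm10 in 4, Ccna2 in 7, Aurka in 9 and Bub1 in 15. With 1 array left out, the difference ran from −2.18 to −0.94 for Mcm6 and from −2.35 to −0.94 for Mcm10. It ran from −1.25 to −0.72 for Ccna2, from −1.38 to −1.0 for Aurka and from 0.71 to 1.28 for Bub1. For Mcm2 it was −1.91 to −1.57, for Cdca8 −1.63 to −1.37 and for Mad2l1 1.03 to 1.46. Other contents of the lens moved with genotype at PN56. Of 14 crystallin genes 10 were lower in Klf4CN, and of 15 lens epithelial markers 4 were lower and 1 higher, with the summed signals given above; none of these markers read near 0. The photoreceptor markers summed to 6643 to 21057 in PN56_Klf4CN and 8105 to 8578 in PN56_WT, with Prph2 below the offset in both. The 9 corneal or surface epithelium markers summed to 5770 to 6957 in PN56_Klf4CN and 11612 to 13579 in PN56_WT, none below the offset, and of the 3 bright enough to be tested 1 was lower. The array control for the 5′ end of 18S ribosomal RNA averaged 8353 ± 3751 in PN56_Klf4CN and 1699 ± 1656 in PN56_WT (SD, n = 2 each). A spiked-in Cre control averaged 52250 ± 1397 in PN56_Klf4CN and 78237 ± 7931 in PN56_WT. A spiked-in BioD control read 10939.8 and 12067.6 in PN56_Klf4CN against 16218.1 and 18675.5 in PN56_WT. After the deposited scaling, these added controls were thus not equal between the genotypes. Their part in the genotype differences was not tested.

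**Figure D5:**
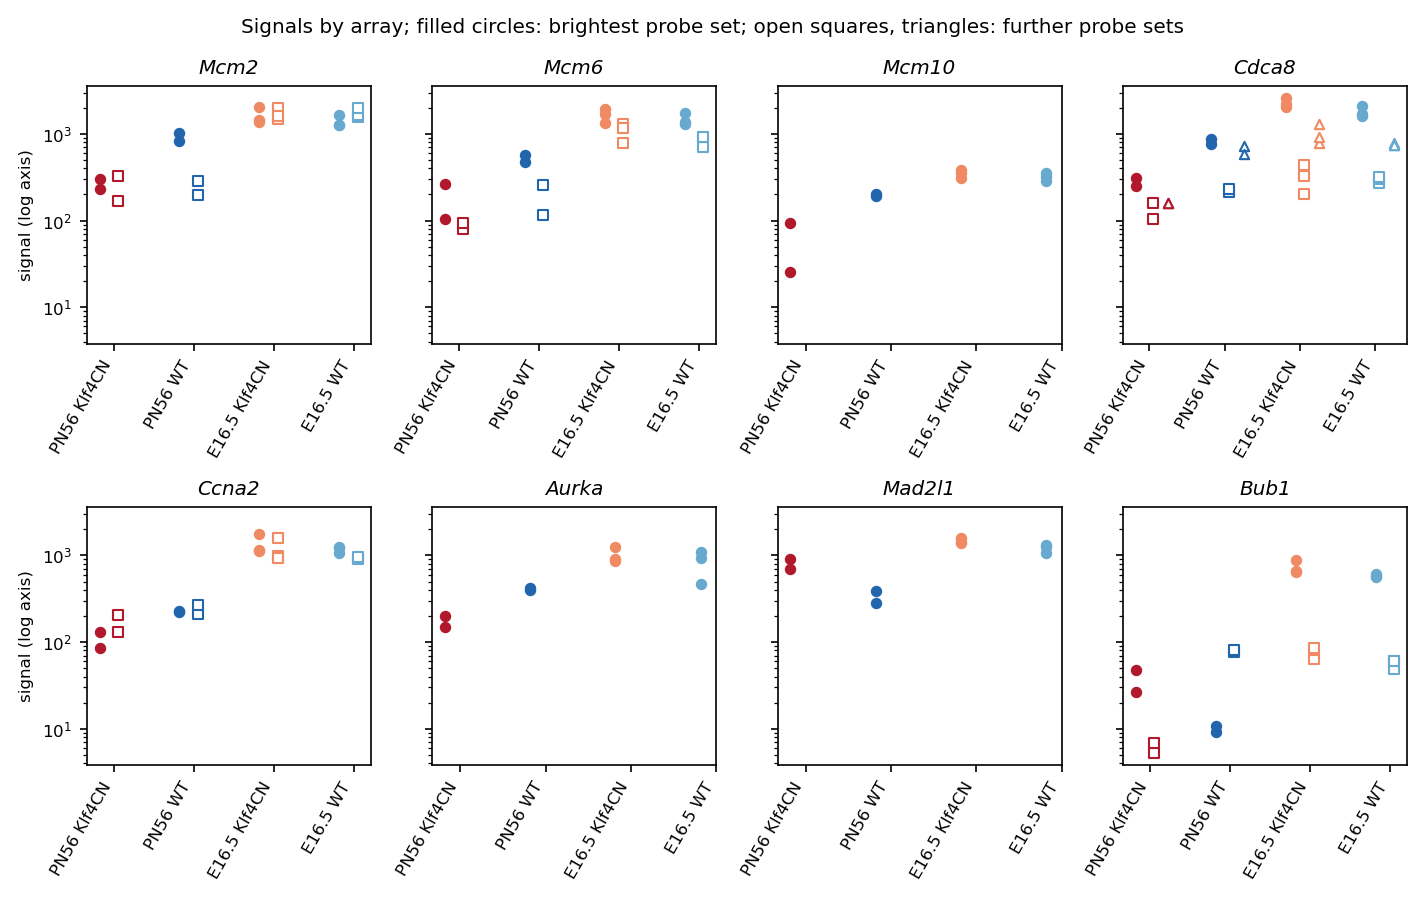
Signals on a log axis for the 8 genes called between genotypes at PN56, 1 point per array, with groups from left to right PN56 Klf4CN, PN56 WT, E16.5 Klf4CN and E16.5 WT. Filled circles are the brightest probe set and open symbols the further probe sets above the low-signal limit; those of Cdca8 lie lower in Klf4CN at PN56, those of Mcm2 (open squares) overlap, and those of Bub1 run opposite to the filled circles.

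At E16.5 no gene of the list passed the test between genotypes (limma, 0 of 38), against 0.00743% of all tested genes, which is 1 gene. That gene was Cdkn1a, the cyclin-dependent kinase inhibitor p21, which read 1039.6, 1114.6 and 1613.2 in E16.5_Klf4CN against 432.9, 416.0 and 284.0 in E16.5_WT (1.69 ± 0.20, adjusted p = 0.021). At an unadjusted p under 0.05, 3 of the 38 were counted, against 606 of 13450 genes, namely Rrm2 (0.30 ± 0.13), Kif11 (0.45 ± 0.19) and Cdca8 (0.35 ± 0.14), named after their values were seen. The adjusted p of all 38 division genes was 0.9998. The differences leaned one way all the same, with 36 of 38 above 0, against 6720 of 13450 tested genes, and a median of 0.20 over the 38 genes and −0.00 over all tested genes. They ran from −0.16 (Foxm1) to 0.71 (Ttk).

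Groups that did not overlap at E16.5 were found for 5 of the 38 genes, all mitotic and all higher in Klf4CN, against 11.8% of all tested genes without overlap, 5.15% higher and 6.65% lower. These were Bub1, Mad2l1, Ttk, Kif11 and Cenpe. Ttk read 257.1, 347.0 and 368.7 in E16.5_Klf4CN against 213.4, 225.6 and 141.0 in E16.5_WT. Kif11, the motor that pushes spindle poles apart, read 467.3, 545.9 and 537.5 in E16.5_Klf4CN against 359.4, 347.0 and 417.9 in E16.5_WT. The lean to the higher side rested largely on 1 array. E16.5_Klf4CN replicate 2 had the highest signal of the 6 embryonic arrays for 30 of the 38 genes (78.9%), against 19.1% of all tested genes. Without it the median was 0.06 and 28 of 38 differences lay above 0, and without E16.5_Klf4CN replicate 1 the median was 0.32.

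The same array was high in genes of the neural retina. The mean log2 level of 15 retinal progenitor and neuron markers was 9.07, 10.56 and 9.73 in E16.5_Klf4CN and 6.41, 9.61 and 8.87 in E16.5_WT, and that of the 38 division genes was 9.64, 9.99 and 9.76 against 9.53, 9.72 and 9.51. In each genotype, the second replicate was the highest for both lists. The retinal markers summed to 9603 to 26107 in E16.5_Klf4CN and 3215 to 14888 in E16.5_WT, with none below the offset in either group, and none of the 15 passed the test. Pigment cell markers averaged 8.53, 9.03 and 7.67 in E16.5_Klf4CN and 6.80, 7.20 and 7.84 in E16.5_WT on the log2 scale. An array control that reads 18S ribosomal RNA near its 5′ end averaged 21778 ± 945 in E16.5_Klf4CN and 1869 ± 646 in E16.5_WT (SD, n = 3 each). The part of other cells and of RNA composition in the division gene signals was not tested.

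The change in the genotype difference with age was tested directly, as the difference at PN56 minus that at E16.5. It passed for 4 of the 38 genes, against 4.79% of all tested genes, 2.69% with a positive and 2.1% with a negative difference. Cdca8 had −1.85 ± 0.22 (limma adjusted p = 0.0012), Mcm2 −1.95 ± 0.28 (adjusted p = 0.0033), Mcm6 −1.73 ± 0.41 (adjusted p = 0.035) and Mad2l1 0.98 ± 0.24 (adjusted p = 0.038). For the first 3, the genotype difference was above 0 at E16.5 (0.35, 0.21 and 0.17, none past the test) and below 0 at PN56. For Mad2l1 it was above 0 at both ages, at 1.25 and 0.27. The second Mcm2 probe set had 0.02 (adjusted p = 0.982) and the second Cdca8 probe set −2.30 (adjusted p = 0.0016) in the fit to every probe set, while the Cdca8 probe set not of the shared type had −0.75 (adjusted p = 0.368). Cdca8 kept its call in all 21 alternatives, Mcm2 lost it in 1, Mcm6 in 12 and Mad2l1 in 11.

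Further genes of the same pathways were listed by function, but with earlier results of these data known, so they are not an independent check. They showed the same fall with age in mitosis and a smaller median fall in replication. Of 46 other mitosis genes tested, 42 were lower and 3 higher at PN56 in Klf4CN, and 39 lower and 3 higher in WT, with medians of −2.12 and −1.75. Of 44 other replication genes, 25 were lower and 4 higher in Klf4CN and 22 lower and 4 higher in WT, with medians of −0.58 and −0.40. In either direction, 65.9% of the other replication genes were called in Klf4CN and 59.1% in WT, against 52.1% and 55.6% of all tested genes. For the other mitosis genes the shares were 97.8% and 91.3%. The calls of the other replication genes were mostly lower, 25 against 4 higher in Klf4CN and 22 against 4 in WT. Over all tested genes, 4099 were lower and 2905 higher in Klf4CN, and 4126 lower and 3357 higher in WT. Cks2, a subunit that binds Cdk1, had −3.23 in Klf4CN and −4.16 in WT, and Uhrf1, which maintains DNA methylation behind the fork, −4.64 and −3.63. Pttg1, the gene of securin, went up instead, with 8918.8 and 11162.3 in PN56_Klf4CN against 2329.3, 2806.0 and 2316.5 in E16.5_Klf4CN, and 6975.9 and 6404.5 in PN56_WT against 2063.5, 2269.4 and 1738.6 in E16.5_WT. Rpa1, which coats single-stranded DNA, rose by 1.87 in Klf4CN and by 2.19 in WT.

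Between genotypes at PN56, 4 of the 44 other replication genes (9.09%) and 4 of the 46 other mitosis genes (8.7%) passed, a smaller share than the 13.0% of all tested genes. Fen1, the flap endonuclease that trims Okazaki fragments, read 677.9 and 199.8 in PN56_Klf4CN against 66.1 and 65.7 in PN56_WT (2.24 ± 0.46, limma adjusted p = 0.0085), and Gins4 and Mcm9 were also higher, by 0.58 and 1.38. Orc3 was lower (−0.63). Cks2 (1.10) and Pttg1 (0.58) were higher, and Spag5 (−0.79) and Cep55 (−1.54) lower. At E16.5 none of these genes passed in the limma fit, and at an unadjusted p under 0.05 there were 1 of 44 (Dnmt1) and 2 of 46 (Spc25 and Pttg1).

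Inhibitors and activators of the cycle were both among the genes higher in Klf4CN at PN56. Cdkn1a, which inhibits cyclin-dependent kinases, read 1816.3 and 1585.1 in PN56_Klf4CN against 187.1 and 194.4 in PN56_WT (3.05 ± 0.24, limma adjusted p = 2.1e-05). Cdkn1b, the gene of p27, was also higher (0.95), and Cdkn1c, that of p57, was lower (−0.69). On the other side, E2f1, an activator of S-phase genes, read 104.1 and 142.8 in PN56_Klf4CN against 31.2 and 35.2 in PN56_WT (1.49 ± 0.22, adjusted p = 0.0015). Both PN56_WT signals of E2f1 lie under the low-signal limit of 45.0, so the size of its differences is poorly resolved. Cyclin D2, encoded by Ccnd2, was higher by 1.01. E2f6, a repressor of the same family, was higher by 0.90. With age, E2f1 fell (−2.23 in Klf4CN, −3.57 in WT), and Cdkn2c, the gene of p18, rose by 2.43 and by 2.05. Of 9 DNA damage checkpoint genes, none passed in limma between genotypes at either age, and 7 fell with age in each genotype. At an unadjusted p under 0.05 there were 2 at PN56, Brca1 (−0.71 ± 0.26) and Atr (0.58 ± 0.22), and 0 at E16.5.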

How the data were processed

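Whole-lens RNA was measured on 10 arrays. The authors deposited linear signal intensities, 1 per probe set, made with GCOS 1.4 per the submitters' processing notes; every array has a 2% trimmed mean of 500, which leaves no information on total RNA. The number of arrays limits the precision. From these values, log2(signal + 16) was taken, 64 control probe sets were set aside, and probe sets with 1 gene symbol in the platform annotation (34945, with 932 holding several and 9211 none) gave 18193 genes through the brightest probe set. Genes with a mean under the 40th percentile (a signal of 45.0) were left out, leaving 13450. Group means were fitted with limma 3.58.1 in R 4.3.3 (intensity trend, Benjamini-Hochberg adjustment) and compared between genotypes within age, between ages within genotype, and as the difference of the genotype effects. The script was tested on simulated data. Gene lists were chosen with earlier results of these data known. By the rule for named genes, the text names Klf4, Cdkn1a, each listed gene that passed a test, near misses where few passed, and up to 4 genes of smallest p from each other list and comparison. Alternatives were other scalings, offsets, filters, probe set rules, fits, and each array left out.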

Additional observations from a re-analysis of the deposited data

Results flagged for a closer look

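For 4 genes the genotype difference at PN56 minus that at E16.5 passed the test of that difference in limma. The values were −1.95 for Mcm2, −1.73 for Mcm6, −1.85 for Cdca8 and 0.98 for Mad2l1, on the log2(signal + 16) scale. Sign and size can be read beside the second probe sets in the limma fit to every probe set. They gave 0.02 for Mcm2, −1.22 for Mcm6 and −2.30 and −0.75 for the 2 further Cdca8 probe sets. Of these, only the −2.30 passed (adjusted p = 0.0016). The adjusted p was 0.982 for Mcm2, 0.143 for Mcm6 and 0.368 for the last Cdca8 probe set. No group had more than 3 arrays, so single arrays that stand apart within a group were not looked for by a formal rule.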

How the results depend on the processing

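No member passed at E16.5 under any alternative. At PN56 the count between genotypes was 8 members, against 5 with array weights, 4 in a fit on the 2 compared groups, 3 with probe sets averaged per gene, and 4 to 10 with 1 array left out. For the difference of the genotype effects it was 4, against 2 with array weights, 2 with no intensity trend, 1 with probe sets averaged per gene, and 2 to 7 with 1 array left out. With age, 30 to 34 members passed in WT and 33 to 35 in Klf4CN with 1 array left out. Averaging a gene's probe sets reversed 4 values: Bub1 at PN56 to −0.56, Rrm1 with age to 0.33 in Klf4CN and 0.44 in WT, and Aurka with age in WT to 0.03; in each, a further probe set of the gene went another way or was dim. Whether the shared replicate numbers pair the arrays was not settled. At E16.5, deviations of same-numbered arrays correlated at 0.27, 0.24 and 0.05, and those of differently numbered arrays at −0.28 to 0.06. At PN56 the values were 0.04 and −0.04. With 2 arrays per group these can only mirror each other and cannot decide the question. With the number as a replicate block, 0 members passed at E16.5, 8 at PN56 (7 of them shared, with Bub1 lost at adjusted p = 0.052 and Pcna gained), 34 with age in Klf4CN, 32 in WT and 4 in the difference (3 shared). Over all genes, the count at E16.5 was 1, with 0 to 8 over the alternatives. At PN56 it was 1750, against 637 with array weights, 806 in the 2-group fit, 1073 with averaged probe sets, 1165 with no trend, 2701 with every probe set by itself and 1058 to 1905 with 1 array left out. With age it was 7004 in Klf4CN and 7483 in WT, against 12620 and 13639 with every probe set, where 27022 probe sets stand in place of 13450 genes. In the difference it was 644, against 322 with array weights, 295 with averaged probe sets, 201 with no trend and 277 to 940 with 1 array left out. Within 150 bases before the start, 35.0% of mitosis and 6.7% of replication promoters held the CHR core, with 15.0% and 40% for the E2F-like site and 35.0% and 0.0% for the CHR core with a CCAAT box. Signals of Tyms, Bub1 and Ttk were under the low-signal limit in both PN56 groups, so their size of change is poorly resolved.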
